A study of Mus musculus with 6 samples.

Results

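The T cell receptor alpha gene segments were the 189 genes, among 49315 in the deposited count table, whose name begins with Trav, Traj or Trac followed by a digit, a hyphen or nothing. They were 128 variable (Trav), 60 joining (Traj) and 1 constant (Trac) gene. They were read by bulk RNA sequencing of CD8+ T cells sorted from lymph nodes that drain B16F10 tumors, a transplantable mouse melanoma whose name the sample labels spell B26F10. The animals were C57Bl6/J female mice of genotype WT, and their age is not given in the sources used here. All 6 mice had a single subcutaneous injection of HCW9218, by the series title a complex of TGF-βRII and IL-15. In the monotherapy group it was given alone (n = 3 mice), and in the combination group it was given with anti PD1 into the peritoneum (n = 3 mice). Treatment was given at a tumor size of 50 to 100 mm3 and the cells were taken on day 5. Mice without HCW9218 were not analysed here, so each difference below is relative to HCW9218 alone, and total CD8+ T cells were sorted with no selection for tumor-specific cells.

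The alpha chain of the T cell receptor is made by joining a V segment to a J segment in the developing T cell, which gives each clone its own pair, and the joined exon is spliced to the constant exons of Trac. The primary transcript of a joined gene also runs through every J segment that lies between the chosen J and Trac, and splicing removes them. In CD8+ T cells the alpha and beta chains together recognise peptides on MHC class I, and the relative use of V and J segments is a coarse reading of which clones a population holds.

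All 189 genes lie on chromosome 14, plus strand, of GRCm38, and 189 of 189 had the same start and end in GENCODE release 21 for the mouse. The Trav genes span chr14:52427928-53977678, or 1550 kb. The Traj genes span chr14:54155005-54218842, or 63.8 kb, and Trac lies downstream at chr14:54220521-54224206. By exon length a Trav gene measures 155 to 595 bases, a Traj gene 29 to 72 bases and Trac 935 bases.

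A J segment codes for the end of the third complementarity-determining region and for the phenylalanine-glycine (or tryptophan-glycine) motif that closes it. The first 3 segments below took the largest mean share of Traj counts, the next 3 stood apart in combination replicate 1, and the last 2 belong to the invariant receptors of NKT and MAIT cells. Letters are the plus strand of the GENCODE transcript, and capitals mark a match to that motif: a codon for phenylalanine or tryptophan, a glycine codon, any codon and a glycine codon. It was sought on the sense strand only, in the frame that the last base of the segment sets.
Traj7 at chr14:54211470-54211528: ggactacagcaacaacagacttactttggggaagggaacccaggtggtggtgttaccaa
Traj1 at chr14:54218814-54218842: gtgtgcagatagctgctccatctttcctg
Traj2 at chr14:54217836-54217901: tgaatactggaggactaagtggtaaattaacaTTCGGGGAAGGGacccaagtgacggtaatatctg
Traj16 at chr14:54203134-54203194: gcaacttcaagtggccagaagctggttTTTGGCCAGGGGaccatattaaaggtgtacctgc
Traj27 at chr14:54192303-54192361: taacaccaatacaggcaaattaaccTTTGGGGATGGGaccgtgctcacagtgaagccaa
Traj49 at chr14:54168686-54168747: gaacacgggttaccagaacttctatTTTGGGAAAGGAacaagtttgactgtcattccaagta
Traj18 at chr14:54200777-54200842: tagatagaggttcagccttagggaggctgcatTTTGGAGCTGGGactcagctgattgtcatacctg
Traj33 at chr14:54185358-54185414: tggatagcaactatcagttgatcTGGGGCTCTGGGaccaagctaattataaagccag
A match was present in 43 of the 60 Traj segments (71.7%), in 42 of 51 that GENCODE gives as coding and in 1 of 9 that it gives as pseudogenes. Traj1 is one of those pseudogenes. Traj7 is given as coding and holds no match in that frame, which says only that these letters are not there.

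Libraries held 34568074 to 40101346 counts. The CD8 chain gene Cd8a lay at 1421 to 1646 CPM (the level relative to a TMM-scaled library total) in the monotherapy libraries and at 1440 to 1588 CPM in the combination libraries. Cd8b1 and Cd3d spread more in the combination, at 956 to 1503 and 339 to 688 CPM beside 1107 to 1506 and 432 to 515 CPM in monotherapy, with combination replicate 3 lowest in both. The summed CPM of the CD4 T cell markers Cd4, Foxp3 and Cd40lg was 4.01 to 7.82 in monotherapy and 1.58 to 5.12 in the combination, and that of the 4 B cell markers was 32.0 to 40.8 and 21.4 to 47.1. The melanocyte genes Dct and Tyrp1 summed to 582 counts in combination replicate 2, to 743 in replicate 3 of that group, and to at most 1 in the other 4 libraries. Tyr (39 and 67 counts) and Mlana (21 and 42 counts) were also highest in those replicates 2 and 3. Pmel, a further melanocyte gene, did not follow, at 24.3, 20.9 and 27.0 CPM in monotherapy and 29.0, 23.0 and 29.9 CPM in the combination. The part of these genes in any result below was not tested. Combination replicate 1 stood apart in Traj shares and combination replicate 3 in its Traj total, and values without them are given beside the results they move most. In bulk RNA, fewer cells of a type and less RNA per cell cannot be told apart.

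The constant gene held most of the alpha counts and did not differ detectably between the groups. Trac, which encodes the constant part of every alpha chain, had 644, 515 and 531 CPM in monotherapy replicates 1, 2 and 3 and 689, 619 and 475 CPM in combination replicates 1, 2 and 3. The groups overlapped, with the highest and the lowest library both in the combination. The means were 563 ± 70.5 and 594 ± 109 CPM (SD, n = 3 each), and the log2 fold change of the combination against monotherapy was 0.08 ± 0.19 (SE; edgeR quasi-likelihood test, Benjamini-Hochberg adjusted p = 0.974).

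Trav genes together held a fairly steady part of all counts in each library, while the Traj part varied widely among mice. Trav counts were 8776, 7848 and 8233 in the monotherapy libraries and 6784, 8118 and 6411 in the combination libraries, or 0.0236%, 0.0203% and 0.0205% of all counts against 0.0186%, 0.0208% and 0.0185%. Combination replicate 2 lay above monotherapy replicates 2 and 3, so the groups overlapped. An exact two-sided permutation test over samples gave p = 0.3, or 0.509 after Benjamini-Hochberg adjustment over the 14 summary comparisons made on these genes. With 3 mice against 3, such an exact test cannot go below p = 0.1. Relative to 100 Trac counts, Trav counts were 37.9, 38.7 and 37.4 in monotherapy and 29.9, 34.6 and 35.0 in the combination. On that scale every combination library lay below every monotherapy library, and this difference was not tested.

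Traj counts were 1795, 2052 and 3006 in the monotherapy libraries and 1159, 2525 and 4703 in the combination libraries. Per 100 Trac counts that was 7.76, 10.1 and 13.7 in monotherapy and 5.11, 10.8 and 25.7 in the combination. Combination replicates 1 and 3 were the lowest and the highest of the 6 libraries, with the monotherapy mice between them, and the exact two-sided permutation test of the share of all counts gave p = 0.8 (adjusted p = 0.862). The difference of the combination from monotherapy was 0.00186 percentage points with all libraries, 0.00415 without combination replicate 1 and -0.00107 without combination replicate 3. The order of the 6 libraries by Traj share was also their order by Xist, a noncoding RNA retained in the nucleus. Xist lay at 440, 461 and 625 CPM of the unscaled library in monotherapy and at 230, 591 and 1013 CPM in the combination. The nuclear RNAs Malat1 and Neat1 did not follow that order on the same scale, with Malat1 at 1175, 1241 and 1648 CPM in monotherapy and 590, 1072 and 1515 CPM in the combination and Neat1 at 231, 156 and 204 CPM and 90.5, 108 and 242 CPM. The mitochondrial share of counts was lowest in combination replicate 3, at 1.73% beside 2.58% to 3.35% elsewhere. The part of these in the Traj result was not tested.

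**Figure D1:**
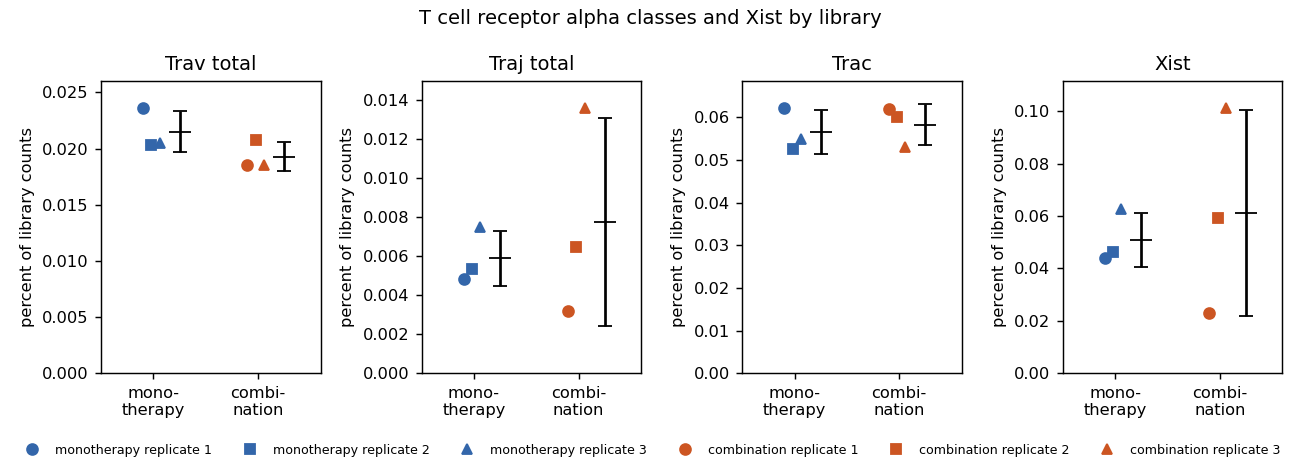
Percent of all library counts in the Trav genes together, the Traj genes together, Trac and Xist (y axes, each from 0), for the 3 monotherapy and the 3 combination libraries. Points are libraries, and the black dash and bars are the mean and SD of 3. Trav and Trac stay within a narrow band, while Traj and Xist are lowest in combination replicate 1 and highest in combination replicate 3.

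With all 6 libraries, no alpha segment passed the test between the groups, either as a level or as a share of its class. Of 15142 genes tested with edgeR, 164 (1.08%) were called at an adjusted p under 0.05, and of the 112 alpha segments tested (67 Trav, 44 Traj and Trac) 0 were called. At an unadjusted p under 0.05 there was 1 segment, Traj16, beside 8.00% of all genes. DESeq2 called 0 segments, with 2 of the 177 it fitted at an unadjusted p under 0.05 beside 4.45% of all genes it fitted, and it called 1.56% of the genes for which it gave an adjusted p. Scaled to the Trav or Traj total of the library instead, the edgeR fit called 0 segments beside 1.08% of all genes, with 1 (Traj8) at an unadjusted p under 0.05 beside 8.06% of all genes. With combination replicates 2 and 3, which held Dct and Tyrp1, both left out, edgeR called 6 of 117 segments as levels and 4 as shares, beside 8.79% of all genes in each fit. That setting was chosen after seeing the data and compares 1 mouse with 3.

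As a description, the members leaned in opposite directions by class. The median log2 fold change was -0.19 over the 67 Trav genes, of which 17 lay above 0 and 50 below. It was 0.35 over the 44 Traj genes, of which 34 lay above 0 and 10 below, and -0.00 over all genes tested. Both leans moved when 1 mouse was left out. The Traj median was -0.29 without combination replicate 3 and 0.68 without combination replicate 1. The Trav median was -0.06 without monotherapy replicate 1, with 30 genes above 0 and 39 below, and also -0.06 without combination replicate 3, with 28 above and 41 below. Scaled to the class total the medians were -0.04 for Trav and -0.02 for Traj. The SE of a log2 fold change had a median of 0.28 for Trav and 0.51 for Traj.

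**Figure D2:**
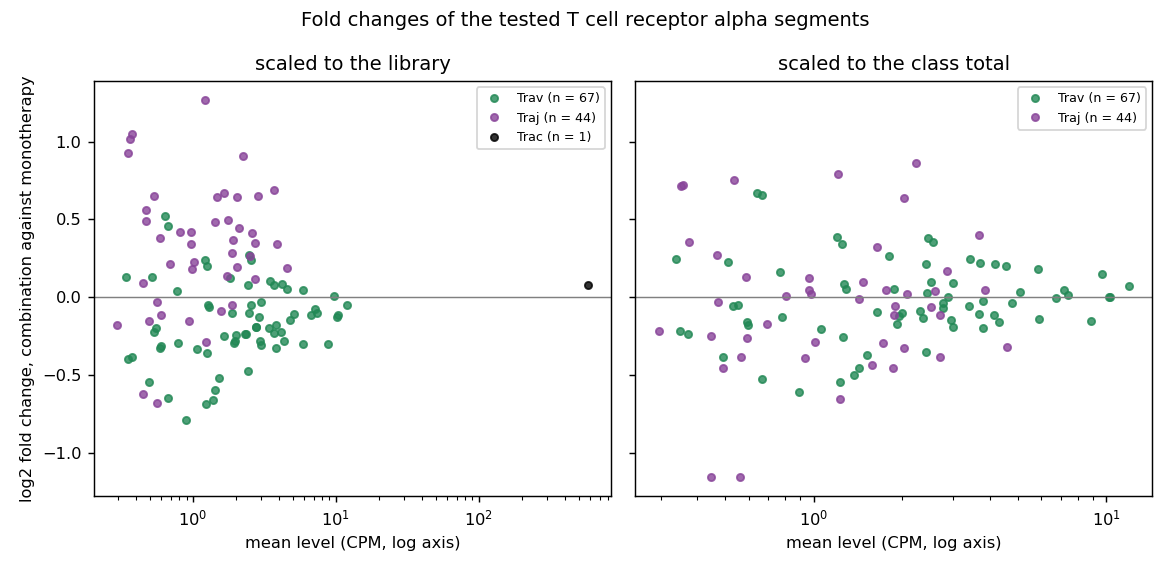
Log2 fold change of the combination against monotherapy (y axis) against mean level in CPM (x axis, log scale) for each tested segment, scaled to the library on the left and to the Trav or Traj total on the right. On the left most Trav points lie below 0 and most Traj points above 0, with medians of -0.19 and 0.35, and on the right both classes centre near 0.

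The filter on low counts left 61 Trav and 16 Traj genes untested. Of those 61, 12 had 0 counts in every library and the others had at most 56 counts over all 6. The 16 Traj genes had at most 50 counts each. A count of 0 allows a share of up to 0.0342% to 0.0468% of Trav counts and 0.0638% to 0.259% of Traj counts, depending on the library (3 counts of the class total, counting error only). The untested Trav genes included all 34 whose spliced sequence is identical to that of another Trav gene, so their reads cannot be told apart by sequence. Those 34 genes together had 0.448% of Trav counts, with a median of 4.5 counts each, whereas 46 genes whose nearest relative is 90% to under 98% identical had 63.8%. How reads that match several genes were counted is not given in the sources used here.

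Use of Trav was spread over many genes, and the same gene led in all 6 mice. Trav3-3 took the largest share of Trav counts in 6 of 6 libraries, with 5.49%, 6.12% and 5.45% in monotherapy and 6.10%, 6.01% and 5.85% in the combination. The groups overlapped. Trav12-2 (mean 5.01%), Trav16n (5.00%), Trav16 (4.74%) and Trav13-1 (4.34%) came next, and the 10 most counted genes summed to 39.1% to 42.6% of Trav counts in each library. Per length, Trav3-3 also led, with 28.4 CPM per kb of exon, followed by Trav13-1 at 26.7, Trav16n at 24.5, Trav12-2 at 24.0 and Trav16 at 23.0 CPM per kb. The share of Trav16 lay between 4.32% and 5.24% and that of Trav16n between 4.56% and 5.39%, so these neighbours in the order do not differ beyond their spread over mice. Trav16 held 4.63%, 4.32% and 4.54% in monotherapy and 4.82%, 4.89% and 5.24% in the combination, without overlap, and its share-scaled log2 fold change was 0.15 ± 0.15 (SE; edgeR adjusted p = 0.931). Shares of the groups did not overlap for 11 of the 67 tested Trav genes (16.4%), 7 higher and 4 lower in the combination. They did not overlap for 4 of the 44 tested Traj genes (9.09%). CPM, a different measure, did not overlap for 14.7% of all genes tested, and no such background was computed for shares. Trav5-4 was another of the 11 Trav genes, with a share-scaled log2 fold change of 0.18 ± 0.17 (SE; edgeR adjusted p = 0.929).

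**Figure D3:**
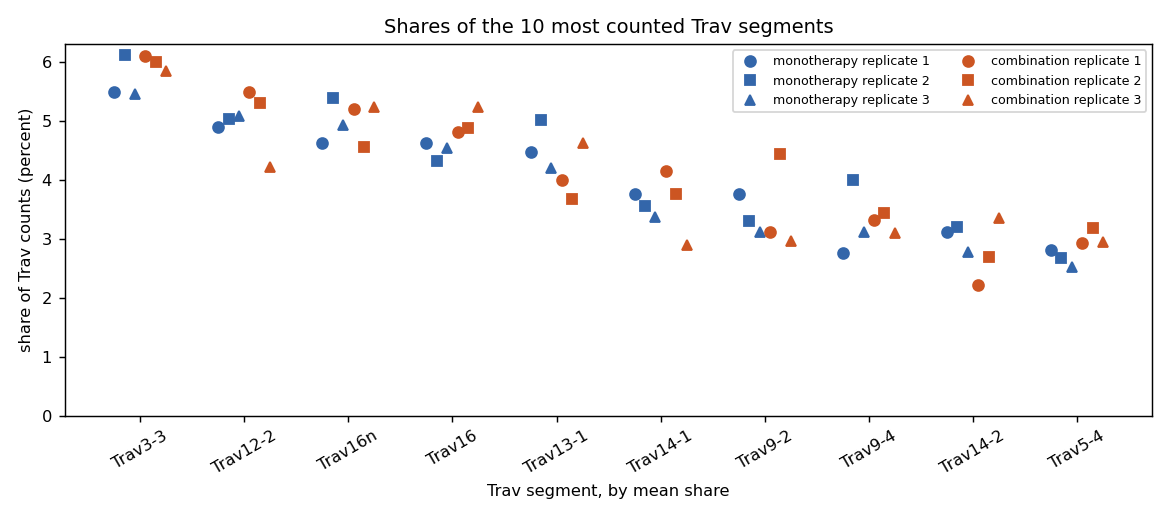
Share of Trav counts in percent (y axis, from 0) for the 10 Trav genes with the largest mean share (x axis), with 1 point for each library. Trav3-3 is the highest gene in every library, and for Trav16 and Trav5-4 all combination points lie above all monotherapy points, while for the other 8 genes the groups overlap.

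By family, the 9 Trav14 genes together took 11.9% to 12.9% of Trav counts, the 3 Trav16 genes 10.9% to 12.2%, the 11 Trav9 genes 8.86% to 10.8% and the 13 Trav7 genes 8.59% to 9.44%. The mouse locus carries duplicated blocks of V genes, whose copies are marked d or n after the family number. The 55 genes with neither mark took 75.0% of Trav counts on average, the 34 marked n 14.8% and the 39 marked d 10.2%. In each library the unmarked genes held 74.1% to 76.1%. Many marked genes have an identical copy, and how reads that match both were counted is not given, so these shares are not use alone. The 10 genes marked dv, which can also join to delta segments, held 9.34% to 11.2%. Pseudogenes by GENCODE were 20 of the 128 genes (15.6%) and held 1.38% to 1.61% of Trav counts.

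Several Trav genes were lower in all 3 combination mice, but none passed the test. CPM of the groups did not overlap, in either direction, for 14.7% of all genes tested. The part of all genes that was lower in this way was not counted, so a count of falls alone has no background here. Of the Trav genes, 9 of 67 (13.4%) did not overlap, each lower in the combination. These were Trav1, Trav3-1, Trav6d-5, Trav10n, Trav13n-4, Trav4-2, Trav8-1, Trav6-5 and Trav13-1, of which Trav3-1, Trav8-1 and Trav6-5 were named after their values were seen. Trav13-1, the most counted of them, had 10.9, 10.01 and 8.35 CPM in monotherapy and 8.26, 7.89 and 7.69 CPM in the combination. The gap between the lowest monotherapy and the highest combination library was narrow, and the log2 fold change was -0.30 ± 0.17 (SE; edgeR adjusted p = 0.766).

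The largest fall by value among tested Trav genes was that of Trav6n-5, with 1.39, 1.22 and 0.80 CPM in monotherapy and 0.58, 0.53 and 0.85 CPM in the combination. Combination replicate 3 lay within the monotherapy range. Its log2 fold change was -0.79 ± 0.39 (SE; edgeR adjusted p = 0.687). Trav10n (-0.69), Trav6d-5 (-0.66), Trav4-2 (-0.65) and Trav13n-4 (-0.60) followed, with edgeR adjusted p-values of 0.691 to 0.831. The highest log2 fold changes were those of Trav6d-3 (0.52), Trav6-1 (0.45), Trav6-3 (0.27), Trav7d-4 (0.24) and Trav6-7-dv9 (0.24). Trav6 genes stood at both ends, and of the 11 tested 4 lay above 0 and 7 below. That family as a whole took 6.92% ± 0.459 of Trav counts in monotherapy and 7.16% ± 0.508 in the combination (SD, n = 3 each).

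The spread of Trav use did not differ detectably between the groups. Shannon entropy over Trav shares, which rises as counts are spread more evenly, was 5.67, 5.62 and 5.69 bits in monotherapy and 5.63, 5.61 and 5.66 bits in the combination. The groups overlapped, and the exact two-sided permutation p was 0.3 (adjusted p = 0.509 over 14 comparisons). These values equal the entropy of 50.6 ± 1.24 and 49.6 ± 0.802 equally used genes (SD, n = 3 each). The 64 Trav genes nearer to the Traj cluster, which tend to join first in development, held 81.3% ± 1.08 and 81.8% ± 0.497 of Trav counts (SD, n = 3 each; exact two-sided permutation p = 0.5, adjusted p = 0.583). The farther genes include those marked d and part of those marked n, many with an identical copy whose reads cannot be told apart by sequence. How far this raises the share of the nearer genes was not tested.

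Trav use was about as far apart within a group as between the groups. The Bray-Curtis distance, the percent of counts that would have to change gene to make 2 libraries equal, was 7.88% to 8.004% within monotherapy, 7.88% to 8.85% within the combination and 7.47% to 9.78% between the groups. The mean between groups exceeded the mean within groups by 0.140 percentage points (exact one-sided permutation p = 0.4, adjusted p = 0.509). Over the 67 Trav genes with a mean of at least 10 counts, chi-square per degree of freedom was 2.51 in monotherapy and 2.45 in the combination, where counting noise alone gives about 1. None of these 67 genes exceeded 2 times its largest share in the other 5 libraries in any library, while some genes with fewer counts did, such as Trav14d-1 with 8 counts in monotherapy replicate 1 and at most 1 elsewhere (named after its values were seen).

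Traj levels rose steeply along the locus toward Trac in all 6 mice. In CPM per kb, the Spearman correlation of a segment's level with its distance from Trac was -0.936, -0.932 and -0.933 in the monotherapy libraries and -0.805, -0.911 and -0.959 in the combination libraries. These describe 60 segments of the same libraries, which share depth and are not independent, and they were close without the 4 segments under 54 bases. The 20 segments nearest to Trac (Traj21 to Traj1) held 62.4% to 72.6% of Traj counts, and the 20 farthest (Traj61 to Traj42) held 4.76% to 11.2%. The median level of the near 20 was 16.2, 14.02 and 22.4 times that of the far 20 in monotherapy and 8.46, 18.0 and 19.1 times in the combination. Combination replicate 1 had the smallest ratio, and in the ratio the other 2 combination libraries lay within the monotherapy range. Reads of unspliced transcripts that run through a J segment would also count for it. Their part was not tested, so Traj shares here and below are not use alone.

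**Figure D4:**
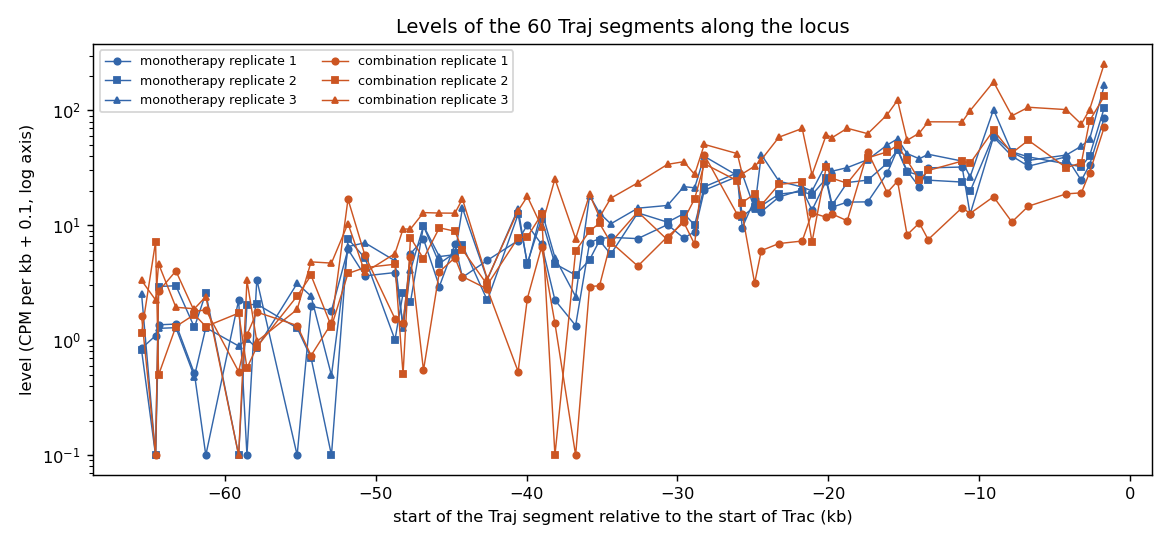
Level of each Traj segment in CPM per kb, plus 0.1 (y axis, log scale), against the start of the segment relative to the start of Trac in kb (x axis), with 1 line for each library. All 6 lines climb toward Trac, and combination replicate 3 runs highest and combination replicate 1 lowest near Trac.

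Per length, Traj1 led with 136 CPM per kb, ahead of Traj7 at 80.3, Traj14 at 57.3 and Traj2 at 56.7 CPM per kb. Traj1 and Traj14 are short pseudogenes of 29 and 34 bases, and division by so short a length raises their place in this order. Over all libraries Traj1 had 886 counts and Traj7 had 1059. By mean share of Traj counts Traj7 led, with 7.13%, 6.68% and 7.98% in monotherapy and 3.28%, 6.14% and 7.68% in the combination. Combination replicate 1 was lowest and the other 2 combination libraries overlapped monotherapy. Traj1 (mean 5.88%), Traj2 (5.60%), Traj5 (4.12%) and Traj4 (4.02%) followed, and Traj5, the farthest of these 4 from Trac, starts 6.74 kb before it. The 9 Traj pseudogenes, 15% of the class, held 10.3% to 12.9% of its counts, a larger part than the pseudogenes of the Trav class.

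Traj16 was the segment with the smallest p as a level, and it did not pass after adjustment. It had 1.00, 1.47 and 2.20 CPM in monotherapy and 2.95, 2.43 and 3.42 CPM in the combination, so that all 3 combination libraries lay above all 3 monotherapy libraries. Its log2 fold change was 0.91 ± 0.33 (SE; edgeR unadjusted p = 0.0204, adjusted p = 0.426), and it was 0.92 without combination replicate 1 and 0.78 without combination replicate 3. Groups did not overlap for 2 of 44 Traj genes (4.55%), Traj16 and Traj45, against 14.7% of all genes tested. Traj45 had 0.362, 0.127 and 0.241 CPM in monotherapy and 0.365, 0.501 and 0.518 CPM in the combination, a log2 fold change of 0.93 ± 0.51 (SE; edgeR adjusted p = 0.756).

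The largest fold change by value was that of Traj8, a pseudogene of 37 bases, with 0.47, 0.71 and 0.94 CPM in monotherapy and 0.52, 1.32 and 3.29 CPM in the combination. Combination replicate 3 was far above the rest and combination replicate 1 lay inside the monotherapy range. The log2 fold change was 1.27 ± 0.60 (SE; edgeR adjusted p = 0.660), and as a share of Traj counts its unadjusted p was 0.0487 (edgeR adjusted p = 0.615). Without combination replicate 3 it was 0.38. Traj36 (1.05) and Traj43 (1.02) came next, and without combination replicate 3 they were at -2.42 and 0.75, so the direction of Traj36 turned. The lowest values were those of Traj39 (-0.68) and Traj44 (-0.62), which had 1 count each in combination replicate 1. Without that library they were at -0.13 and -0.08.

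In Traj shares, combination replicate 1 stood apart from the other 5 mice. Bray-Curtis distances in the 5 pairs that include it were 21.5% to 26.9%, against 9.87% to 14.5% in the other 10 pairs. Chi-square per degree of freedom over the 44 Traj genes with a mean of at least 10 counts was 2.05 in monotherapy and 6.88 in the combination, and 3.87 between combination replicates 2 and 3. No test of this difference was made, and combination replicate 1 also had the fewest Traj counts, 1159.

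Of the 44 Traj genes with a mean of at least 10 counts, Traj16, Traj27 and Traj49 exceeded 2 times their largest share in any other library there. Traj16 held 8.37% of its Traj counts (97 of 1159, 95% Wilson interval 6.91% to 10.1%), beside 2.01% to 3.64% elsewhere. Traj27 held 7.59% (88 counts, 6.20% to 9.26%), beside 2.19% to 3.13%. Traj49 held 3.28% (38 counts, 2.40% to 4.47%), beside 0.356% to 0.877%, and was named after its values were seen. The intervals cover counting error only, and reads are not independent molecules. Each of these 3 segments carries the phenylalanine-glycine letters shown in capitals above. Among the same 44 genes, 1 passed this ratio in another library, the pseudogene Traj36 in combination replicate 3 (1.17% beside at most 0.536%). Segments with fewer counts also passed it, such as Traj58 with 9 counts in combination replicate 1 and Traj60 with 15 in combination replicate 2, both named after their values were seen. Traj7 had the largest share in 4 of the other 5 libraries but held 3.28% in combination replicate 1, against 6.14% to 7.98% in the others.

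**Figure D5:**
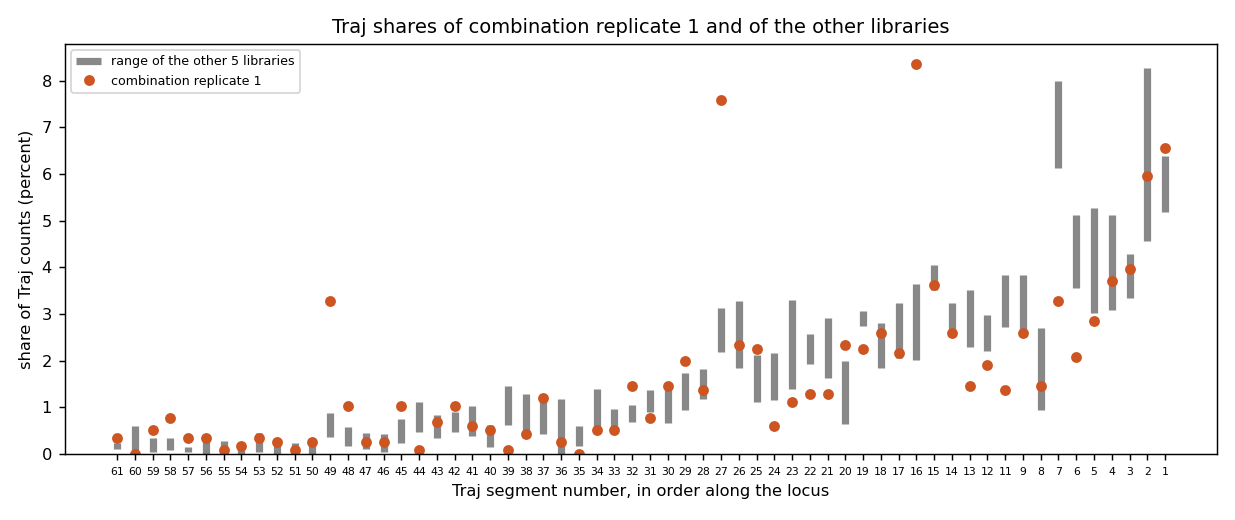
Share of Traj counts in percent (y axis, from 0) for the 60 Traj segments in their order along the locus (x axis), with combination replicate 1 as points and the range of the other 5 libraries as grey bars. Segments 49, 27 and 16 lie far above the grey bars at 3.28%, 7.59% and 8.37%, and segment 7 lies below at 3.28%.

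Traj counts were spread slightly less evenly in each combination mouse. Shannon entropy over Traj shares was 5.25, 5.27 and 5.23 bits in monotherapy and 5.21, 5.20 and 5.21 bits in the combination, and the groups did not overlap. In equally used segments that was 38.0 ± 0.477 against 36.9 ± 0.147 (SD, n = 3 each). The exact two-sided permutation p was 0.1, the smallest that 3 against 3 can give, and 0.509 after adjustment over 14 comparisons. The difference was -0.0422 bits with all libraries, -0.0433 without combination replicate 1 and -0.0443 without combination replicate 3. The 5 most counted segments of each library took 27.1%, 27.0% and 27.6% in monotherapy and 32.4%, 29.7% and 27.6% in the combination (exact two-sided permutation p = 0.2, adjusted p = 0.509), a difference of 2.67 percentage points that was 1.41 without combination replicate 1. The 30 segments nearer to the Trav genes held 13.2% ± 0.626 and 13.5% ± 2.97 of Traj counts (SD, n = 3 each; exact two-sided permutation p = 0.9, adjusted p = 0.9).

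Of the segments of the invariant alpha chains, the V genes used by NKT cells had hardly any counts. NKT cells pair Trav11 or Trav11d with Traj18. Trav11 had 1, 1 and 0 counts in monotherapy and 0, 0 and 1 in the combination, and Trav11d had 3, 2 and 1 and then 1, 0 and 0. The spliced sequences of these 2 genes are 99.7% identical, and neither was tested. How reads that match both were counted is not given, so these low counts do not show low use. Traj18 lay at 0.97, 0.97 and 1.88 CPM and at 0.91, 1.74 and 3.42 CPM, with overlapping groups (log2 fold change 0.67 ± 0.49 SE, edgeR adjusted p = 0.881), but it can join to any V gene. MAIT cells pair Trav1 with Traj33. Trav1 had 3.06, 2.49 and 2.90 CPM in monotherapy and 2.22, 2.27 and 1.61 CPM in the combination, without overlap (log2 fold change -0.47 ± 0.26 SE, edgeR adjusted p = 0.746), and Traj33 overlapped (-0.15 ± 0.52 SE, edgeR adjusted p = 0.986). Zbtb16, the transcription factor of both cell types, lay at 1.17 to 1.74 CPM in monotherapy and 1.03 to 1.79 CPM in the combination. Klrb1c, a receptor of NK and NKT cells, lay at 1.65 to 2.34 CPM and 1.89 to 3.43 CPM (log2 fold change 0.54 ± 0.30 SE, edgeR adjusted p = 0.773).

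Genes that act with the alpha chain gave no call. Of 8 genes of the receptor complex (the CD3 chains, the beta constant genes and the CD8 chains) 8 were tested and 0 called by edgeR, with a median log2 fold change of 0.03 and 0 at an unadjusted p under 0.05. Of 10 recombination genes 8 were tested and 0 called, with 1 at an unadjusted p under 0.05 beside 8.00% of all genes. That was Lig4, which seals the joined ends, with 10.8, 12.1 and 10.3 CPM in monotherapy and 7.23, 8.73 and 7.54 CPM in the combination (log2 fold change -0.49 ± 0.16 SE, edgeR adjusted p = 0.333). Rag1, which with Rag2 cuts the segments, had 1 count over all libraries and Rag2 had 0. Of 15 factors that bind the Tcra enhancer or organise the locus, Tcf7, Runx3 and Ctcf among them, 15 were tested and 0 called, with a median of 0.04.

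The beta chain is the closest relative, and its segments gave no call either. Of the Trbv genes 23 of 35 were tested and 0 called by edgeR, and of the 14 Trbj genes 14 were tested and 0 called, with 0 in each class at an unadjusted p under 0.05. The Trbj genes together lay at 110, 84.9 and 88.5 CPM in monotherapy and 61.5, 78.3 and 113 CPM in the combination. Combination replicates 1 and 3 were the lowest and the highest library, as for Traj. In the Trbv genes combination replicate 3 was instead the lowest, with 748, 557 and 543 CPM in monotherapy and 740, 628 and 395 CPM in the combination, and likewise in the 2 Trbc genes, with 784 CPM in combination replicate 3 and 1057 to 1725 CPM elsewhere. The median log2 fold change was -0.06 for Trbv and -0.15 for Trbj, and whether these differ from the Trav and Traj medians was not tested.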

How the data were processed

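CD8+ T cells of 3 monotherapy and 3 combination mice were sequenced in bulk after oligo(dT) selection, per the labels' protocols, and groups and replicate numbers come from the sample titles. The submitters' processing notes name STAR 2.5.2b, featureCounts, Subread 1.5.2 and DESeq2. Settings, strand, reads with several matches or across a V-J junction, the annotation release and the build were not given in the sources used here, so a gene and an overlapping antisense gene cannot be separated. The deposited counts are whole reads per gene, not normalized, and were identical in both deposited files for 6 of 6 libraries. The series table has 6 more columns that match no sample, which were left out. Coordinates are the deposited ones, and lie on GRCm38 by their match to GENCODE.

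Counts were tested with edgeR 4.0.16 in R 4.3.3 (filterByExpr, TMM factors of 0.901 to 1.12, quasi-likelihood test, no covariate) with DESeq2 1.42.0 as an alternative. The p-values were adjusted over all genes tested. A second edgeR fit used the Trav or Traj total of each library as the offset of those genes. CPM per kb uses the unscaled library total and exon length, and every other CPM is scaled by TMM unless said otherwise. Entropy, shares, locus use and distances were compared by exact permutation tests, one-sided for the distances and two-sided for the others. Intervals are 95% Wilson intervals. Named segments were Trac, the 10 of each class with the largest mean share, the 5 of each class with the largest rise and fall, any segment called, and those of the invariant receptors. Members and lists were chosen with earlier results of these data known. The labels call the samples separate mice, and p-values measure the spread between them.

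On simulated counts for 14862 genes with these libraries' means, edgeR called 42% of 50 genes raised 2-fold, 34.0% of 47 lowered 2-fold and 100% of 50 raised 4-fold. Of 14670 unchanged genes it called 4. Every simulated gene was given the same variation between mice, and the changed genes were picked from all genes tested. The rates were not measured for the alpha segments alone, so they do not give how often a change in a segment would be called. Alternatives were other scalings, filters and tools, merged copies, pseudogenes left out, a replicate block and each library left out.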

Additional observations from a re-analysis of the deposited data

How the results depend on the processing

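Of 19 results that answer a comparison, tried under 175 alternatives, 167 values kept their direction or call, or moved by less than the spread. By that rule a value can change sign and still count as kept. The log2 fold change of Trac did so, from 0.08 to -0.02 without combination replicate 1. So did the Traj median, from 0.35 to -0.29 without combination replicate 3, where the spread over mice was wide. The difference in Traj entropy was -0.0609 bits without pseudogenes and -0.0728 bits without genes under a mean of 10 counts, and that in effective segments was then -1.70. The difference in the largest Trav share was 0.780 percentage points with d and n copies merged. With combination replicates 2 and 3 both left out, chosen after seeing the data, 6 of 117 segments were called as levels and 4 as shares, beside 8.79% of all genes in each fit, and the Traj median was -0.92. The lone library was then assumed to vary like the monotherapy group. There Traj6 reversed to -1.83 and Traj7 to -1.90 (edgeR adjusted p = 0.0155 and 0.0158), and Traj39 (-4.38) and Traj44 (-4.03) passed the threshold. No named segment was called with all libraries, so keeping that says little. Of 483 values of the named segments under alternatives, 43 changed sign without a call in either fit. The reversed values of Traj6 and Traj7 are not in that count.

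Leaving out 1 library at a time gave 0 to 0 called segments as levels and 0 to 0 as shares. Ranges were -0.02 to 0.22 for Trac, -0.21 to -0.06 for the Trav median, -0.29 to 0.68 for the Traj median, -0.00295 to -0.00115 and -0.00107 to 0.00415 percent for the Trav and Traj totals. Entropy differences were -0.0483 to -0.0146 (Trav) and -0.0513 to -0.0332 (Traj), and effective numbers -1.69 to -0.510 and -1.34 to -0.859. Largest shares differed by 0.184 to 0.515 (Trav) and 0.550 to 1.20 (Traj), and the 5 largest by 0.340 to 1.21 and 1.41 to 3.84. Locus use differed by -0.00821 to 1.06 and -1.39 to 1.47. Distances differed by -0.115 to 0.561 (Trav, the highest without combination replicate 3) and -2.67 to 3.91 (Traj).

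Whether replicate numbers pair the mice cannot be told from these values. Same-numbered libraries had correlations of 0.145, -0.0551 and 0.279 in their deviations from the group means. Replicates 1 and 3 correlated best with their own number, and replicate 2 did not. With a replicate block, the edgeR fit of levels called 231 genes higher and 57 lower, beside 144 and 20 without it. Of the segments, 0 were then called as levels and 0 as shares, and the medians were -0.16 (Trav) and 0.19 (Traj). Leaving out names with a pseudogene mark was not run, since 0 names carry it, and pseudogenes of GENCODE were left out instead, chosen after seeing the data.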

Other observations

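The delta chain genes lie inside the alpha locus, between the V and J genes. Trdc, the delta constant gene, lay at 11.3, 11.97 and 15.1 CPM in monotherapy and at 9.42, 10.2 and 10.3 CPM in the combination, without overlap between the groups (edgeR log2 fold change -0.35 ± 0.16 SE, adjusted p = 0.646). The groups do not overlap for 14.7% of all genes tested.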
